A study of Homo sapiens with 4 samples.

Results

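The 36 genes described here encode the chaperones, folding enzymes, degradation machinery and stress sensors of the endoplasmic reticulum (ER). They were the rows of the deposited gene table whose gene name equalled a listed member, and all 36 were found among 20665 genes. The cells were NALM6, a human leukemia line of B cell precursors (acute lymphoblastic leukemia) that is grown in RPMI with serum, and their total RNA was sequenced in 4 libraries. In the 2 vehicle libraries the cells had received DMSO for 45 min. In the 2 AICAR libraries a glucose deprivation of 24 h came before 15 mM AICAR, a nucleoside that cells convert into an AMP mimic that activates the kinase AMPK, given for 45 min. A deprivation step is labelled for the AICAR cells only, so each difference below is that of the whole AICAR arm against the vehicle arm, and AICAR and glucose deprivation cannot be told apart. The labels do not say whether replicates came from separate cultures, so the p-values measure the spread between these libraries, which may be technical.

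Proteins that enter the secretory pathway fold in the ER with the help of HSPA5 (BiP), HSP90B1 (GRP94), disulfide isomerases and the lectin chaperones calnexin and calreticulin. Proteins that fail to fold are recognised, moved back to the cytosol and degraded, a route called ER-associated degradation. When unfolded proteins accumulate, the sensors IRE1 (gene ERN1), ATF6 and PERK set off the unfolded protein response, which slows translation and induces chaperone and degradation genes. IRE1 splices XBP1 mRNA to give an active transcription factor, and a splicing change of that kind is not visible in counts per gene. In the B lineage this machinery is best known from plasma cells, which depend on XBP1 to secrete antibody.

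A classical route of this induction runs through short promoter motifs, so the motif matches in the members' promoters are shown first. The ER stress response element (ERSE, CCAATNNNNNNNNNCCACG) and the shorter ERSE-II (ATTGGNCCACG) are known binding sites of ATF6 together with the factor NF-Y. RefSeq promoters on GRCh38.p14, from 250 bases before to 50 bases after the gene start, were available for 34 of the 36 members. They were searched on both strands for exact matches, so a site with a mismatch or outside this window is not counted. ERSE was found in 7 members and ERSE-II in 3, against 22 (0.0806%) and 15 (0.0549%) of all 27305 promoters. No member had both motifs, and 37 promoters had either, 10 of them of members. The members are textbook genes of this response, some of which were used to define the motif. Each match is printed below 5′ to 3′ on the gene's strand with 4 bases on either side, and the capitals mark the fixed letters of the motif, in the reverse complement where the match lies on the other strand.

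HSPA5, chr9:125241387-125241413, minus strand, ERSE: ttcaCCAATcggcggcctCCACGacgg
XBP1, chr22:28800599-28800625, minus strand, ERSE: ctggCCAATcgcggagggCCACGaccg
ERO1LB, chr1:236282179-236282205, minus strand, ERSE: cccgCGTGGtcccgcctcATTGGccgc
HERPUD1, chr16:56932021-56932039, plus strand, ERSE-II: gccgATTGGgCCACGttgg
HSP90B1, chr12:103930212-103930238, plus strand, ERSE: ctgaCCAATcggaaggagCCACGcttc
HSP90B1, chr12:103930317-103930343, plus strand, ERSE: ggtgCGTGGtgcggcgcgATTGGtggg
CALR, chr19:12938380-12938406, plus strand, ERSE: cacgCGTGGtcgaccatcATTGGtcgg
CANX, chr5:179698774-179698800, plus strand, ERSE: ccggCCAATcttcacactCCACGaaga
CRELD2, chr22:49918550-49918576, plus strand, ERSE: ctctCGTGGcgaactcggATTGGgcca
HYOU1, chr11:119057376-119057394, minus strand, ERSE-II: gtgaCGTGGtCCAATccca
HYOU1, chr11:119057270-119057288, minus strand, ERSE-II: gggaCGTGGtCCAATgagt
SDF2L1, chr22:21642110-21642128, plus strand, ERSE-II: gaagCGTGGaCCAATcaaa

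The 10 members with a match did not move in 1 direction: 5 were higher with AICAR, 4 were lower and SDF2L1 was not called. Their log2 fold changes ran from -0.78 for HERPUD1 to 0.28 for HYOU1, with a median of 0.12. The 24 members with no exact match to either motif had 7 higher, 2 lower and 15 not called, with a median of 0.03. All 7 members with an ERSE passed the test, HSP90B1, CANX, CALR and CRELD2 higher and HSPA5, XBP1 and ERO1LB lower. The test, described further below, called 39.1% of all genes, 19.4% higher and 19.7% lower. HSP90B1, CANX, CALR, HSPA5 and XBP1 had a mean of at least 100 CPM (counts divided by the TMM-scaled library size), a level at which 61.6% of all genes were called higher and 10.4% lower, so these counts are not read as a property of the motif. The spliced XBP1 factor is known to bind the UPRE core TGACGTGG, which was present in HYOU1, where it overlaps the distal ERSE-II, and in DNAJC10, against 0.795% of all promoters. The CRE core TGACGTCA, a site of ATF and CREB factors, was in none of the 34, against 1.98% of all promoters. DNAJB9, the member with the largest fall, had none of these motifs in this window.

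**Figure D1:**
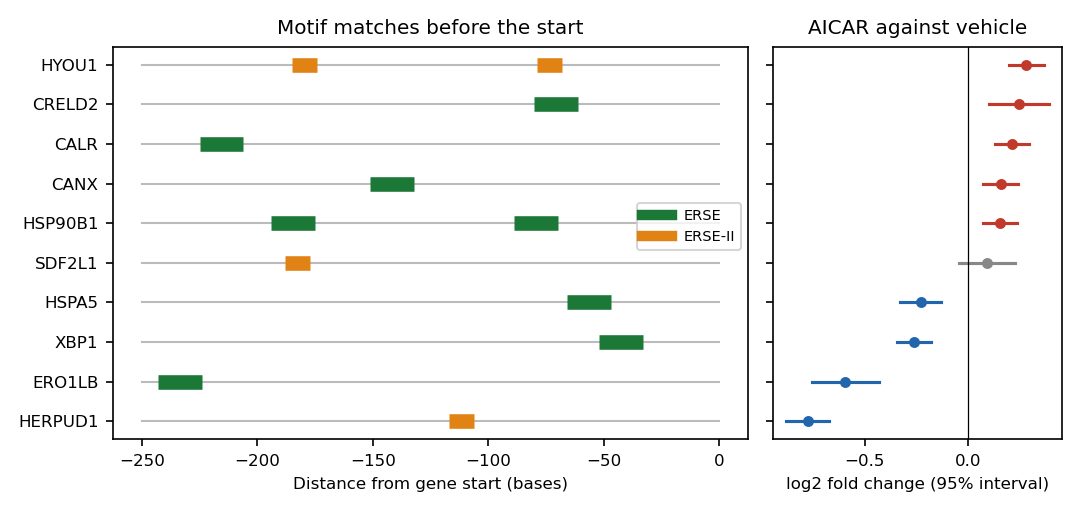
Matches to ERSE (green) and ERSE-II (orange) before the gene start of 10 genes, in bases from the start, beside each gene's log2 fold change between AICAR and vehicle with its 95% interval (red higher, blue lower, grey not called). Genes with the same motif lie on both sides of 0, from HERPUD1 at -0.78 to HYOU1 at 0.28.

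The libraries held 32318376 to 36769116 expected counts, of which the 36 members took 0.5432% to 0.5729%. The cells carried B cell precursor markers, with 12 of 12 measured genes above 1 CPM in every library. Their summed level was 3189 to 3245 CPM with vehicle and 3336 to 3451 CPM with AICAR, and within this sum EBF1, RAG1 and RAG2 were called lower. The summed level of plasma cell markers, the secretory B lineage cell, was 325.3 to 333.5 CPM with vehicle and 299.2 to 314.4 CPM with AICAR, nearly all of it from MZB1, IRF4 and SDC1. Of these IRF4 was called lower, with a mean of 145.9 CPM with vehicle and 108.9 CPM with AICAR, while MZB1 had 151.7 and 164.6 CPM and SDC1 28.34 and 29.41 CPM and neither passed the test. PRDM1 and TNFRSF17 stayed under 1 CPM in every library. T cell markers summed to at most 0.4697 CPM, myeloid markers to at most 4.458 CPM and the erythroid gene HBB to at most 0.1197 CPM. Levels are shares of a library, and fewer cells of a kind and less RNA per cell cannot be told apart.

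All 36 members passed the filter on low counts, and 20 changed between the groups, 13 higher and 7 lower (edgeR's quasi-likelihood test with an adjusted p under 0.05 over 13626 genes). That is 55.6% of the members, against 39.1% of all genes tested. By direction the background was 19.4% for higher and 19.7% for lower calls. With libraries scaled by total counts alone, 9 members were higher and 7 lower, against 1390 and 3135 of all 13626 genes. The rises were all small, with no member at least 1.5-fold higher (background 0.807%), and 3 members, DNAJB9, HERPUD1 and ERO1LB, were at least 1.5-fold lower (background 7.57%). These 3 were also the members that passed a test against a 1.2-fold change, in which no member was called higher. Over all 13626 genes that test called 170 higher and 1173 lower. The median log2 fold change was 0.04 over the members and 0.00 over all genes tested. The AICAR libraries lay above both vehicle libraries for 16 members and below both for 10, against 34.3% and 34.9% of all genes.

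By role, among 21 folding genes 11 rose and 3 fell, 66.7% in all against the 39.1% over all genes, with a median log2 fold change of 0.15. Among 9 degradation genes 1 rose and 3 fell, with a median of -0.02, and without AICAR replicate 2 the number that fell was 1. Among 6 genes for sensors, their factors and their proteases 1 rose and 1 fell, with a median of -0.02. The called shares of the degradation and sensor genes, 44.4% and 33.3%, lie near that of all genes. The summed level of the folding genes was 3972 and 3998 CPM in the vehicle libraries and 4477 and 4479 CPM in the AICAR libraries. The degradation genes summed to 527.6 and 521.4 CPM with vehicle and 518.8 and 510.8 CPM with AICAR. The sensor group summed to 914.7 and 911.2 CPM against 801.9 and 790.1 CPM, and most of that sum is XBP1. Whether the roles differ from each other was not tested.

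**Figure D2:**
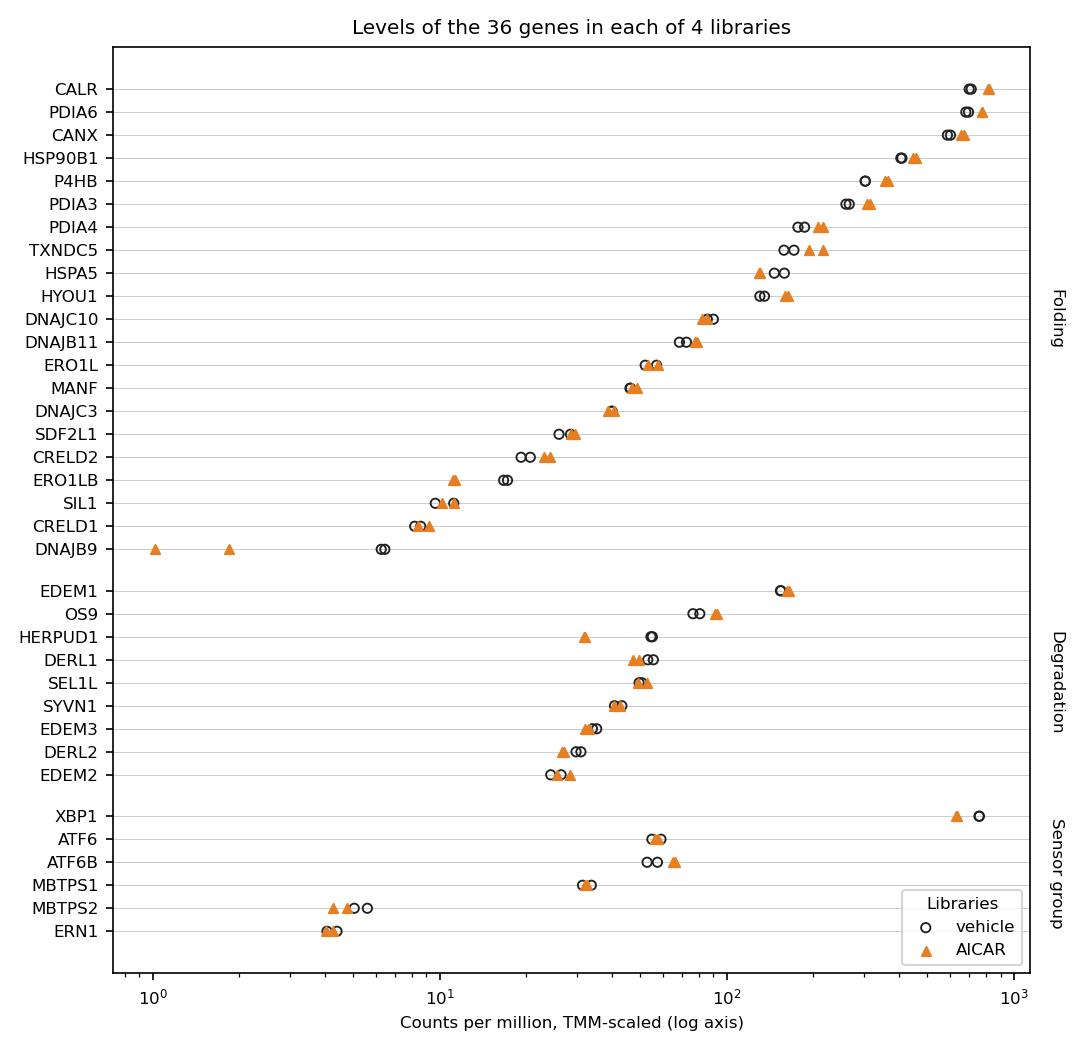
Level of each of the 36 genes in each of the 4 libraries, in TMM-scaled CPM on a log axis, by role (vehicle open circles, AICAR filled triangles). The AICAR libraries lie above both vehicle libraries for 16 genes and below both for 10, and DNAJB9 shows the widest gap.

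Rises were more frequent among abundant genes, in the members and over all genes. Of the 12 members with a mean of at least 100 CPM, 9 were higher (75.0%), 2 were lower (16.7%) and EDEM1 was not called. Of all 1441 genes at that level, 61.6% were higher and 10.4% lower, with a median log2 fold change of 0.15, against 0.19 for these members. Of the 20 members between 10 and 100 CPM, 4 were higher and 4 lower, where the background was 23.4% and 24.2%. Of the 4 members under 10 CPM, none was higher and DNAJB9 was lower, where the background was 3.09% and 16.5%. The share of abundant members that rose was near that of all abundant genes, and the abundant members that fell were HSPA5 and XBP1. Transcript length moved with the fold change as well, with a Spearman correlation of -0.36 over the 36 members and -0.19 over protein-coding genes (longest transcript in GENCODE 29), and the folding genes had the shortest median length, 2858 bases against 3340 for degradation and 4398 for the sensor group. The part of level and length in the rises was not tested.

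**Figure D3:**
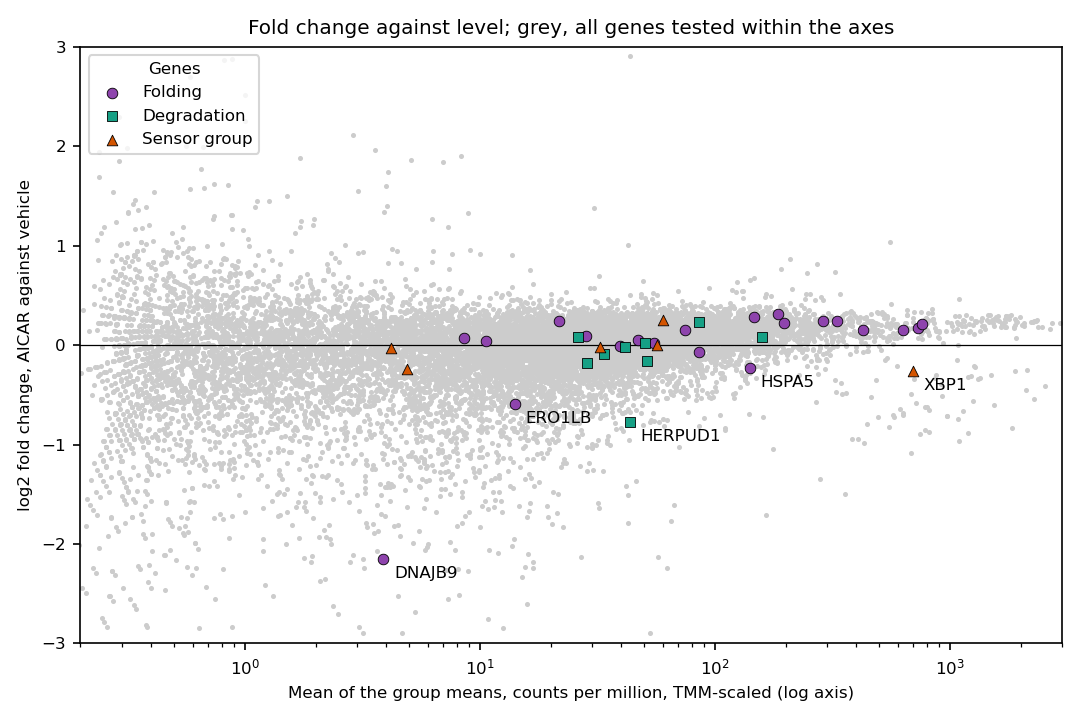
Log2 fold change between AICAR and vehicle against the mean level in TMM-scaled CPM (log axis) for the members, coloured by role, and for all genes tested within the axes (grey). Most members above 100 CPM sit slightly above 0 with the other abundant genes, while XBP1 and HSPA5 lie below 0 at -0.26 and -0.23, and DNAJB9, HERPUD1 and ERO1LB lie lower still.

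Among the chaperones, HSPA5 (ENSG00000044574), the ER Hsp70 that also holds the stress sensors inactive, had 158.9 and 146.6 CPM with vehicle and 130.5 and 129.8 CPM with AICAR. Both AICAR libraries lay below both vehicle libraries. The means were 153 ± 8.65 and 130 ± 0.488 CPM (SD, n = 2), and the log2 fold change of -0.23 ± 0.0442 (SE; adjusted p = 0.00166) is a level 1.17-fold lower. HYOU1 (ENSG00000149428), the large Hsp70 relative that acts as a nucleotide exchange factor for HSPA5, went the other way. Its levels were 135.5 and 130.6 CPM with vehicle against 163.4 and 159.4 CPM with AICAR, with no overlap, a log2 fold change of 0.28 ± 0.0389 (SE; adjusted p = 0.000215). The second exchange factor, SIL1, had 9.658 and 11.2 CPM against 11.24 and 10.23 CPM. Its groups overlapped, and the 95% interval of its log2 fold change, from -0.18 to 0.26, does not include the fall of HSPA5, though that difference was not tested.

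HSP90B1, the ER Hsp90, had 408.1 and 404.6 CPM with vehicle and 458.6 and 444.8 CPM with AICAR, a log2 fold change of 0.15 (adjusted p = 0.00778). With total counts alone it was not called, at 0.09, nor without AICAR replicate 1, at 0.13 (adjusted p from 0.000485 to 1 over all alternatives, the highest in the test against 1.2-fold). HSP90B1 shares reads with other genes, since its expected counts were not whole.

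The J-domain proteins, which bring clients to HSPA5 and start its ATPase cycle, did not move together. DNAJB9 (ENSG00000128590), known as ERdj4 and as a repressor of IRE1 that brings HSPA5 to it, had 6.259 and 6.444 CPM with vehicle and 1.848 and 1.017 CPM with AICAR. Both AICAR libraries lay far below both vehicle libraries. These levels correspond to 221 and 237 counts against 59 and 34, so the gene is read at low depth. Its log2 fold change was -2.15 ± 0.215 (SE; adjusted p = 1.94e-05), or 4.45-fold lower, and it kept its call in every alternative in which it was tested, with values from -2.64 without AICAR replicate 1 to -1.78 without AICAR replicate 2. A short stretch of its exons overlaps THAP5 on the opposite strand.

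DNAJB11 (ERdj3), a secreted co-chaperone, had 72.48 and 68.46 CPM with vehicle and 78.67 and 77.6 CPM with AICAR. The groups did not overlap, and the log2 fold change was 0.15 (adjusted p = 0.0168). The call was lost under 6 of 14 alternatives, among them total counts alone (0.09), DESeq2, no filter, and leaving out vehicle replicate 2 (0.10) or AICAR replicate 1 (0.14). DNAJC3 (p58IPK), which also inhibits PERK, had 39.79 and 39.91 CPM against 40.37 and 38.68 CPM, with a log2 fold change of -0.01 and an interval from -0.12 to 0.10. DNAJC10 (ERdj5), a disulfide reductase that serves degradation, had -0.07 (adjusted p = 0.218), and was called lower when a mean of at least 10 CPM was required (-0.11, adjusted p = 0.0342). SDF2L1, a partner of DNAJB11, and the secreted factor MANF did not pass, with log2 fold changes of 0.09 and 0.05.

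The 9 oxidoreductases among the members include the disulfide isomerases and the ERO1 oxidases. Of them 6 rose, 1 fell and 2 were not called, 77.8% called against the 39.1% over all genes. PDIA6, P4HB, PDIA3, PDIA4 and TXNDC5, which rose, had a mean of at least 100 CPM. At that level 61.6% of all genes were called higher and 10.4% lower. PDIA6 (ENSG00000143870) had 681.4 and 696.3 CPM with vehicle and 774.7 and 776.8 CPM with AICAR. P4HB (PDI itself, and a subunit of collagen prolyl hydroxylase) had 304.3 and 303.8 CPM against 356.1 and 365.6 CPM. PDIA3 (ERp57), the isomerase that works with the lectin chaperones, had 267.4 and 260.4 CPM against 308.8 and 316.0 CPM. In each of these the AICAR libraries lay above both vehicle libraries by more than the replicates differed. Their log2 fold changes were 0.17, 0.25 and 0.24 (adjusted p = 0.00375, 0.000383 and 0.000473). Outside the members, thioredoxin-family genes of the secretory pathway went both ways. ERP29, TXNDC12, TMX2 and QSOX1 rose, by 0.264, 0.149, 0.125 and 0.185 on the log2 scale. TMX3 and TXNDC11 fell, by 0.18 and 0.19, and PDIA5, TMX1, TMX4 and ERP44 were not called. All of these are named here after their values were seen.

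PDIA4 had 0.22 (adjusted p = 0.00166). TXNDC5, another thioredoxin-domain isomerase, had the largest rise of the members, from 158.4 and 171.6 to 194.0 and 215.8 CPM, a log2 fold change of 0.31 ± 0.0547 (SE; adjusted p = 0.000955). It shares exons with the readthrough gene BLOC1S5-TXNDC5 and its expected counts were not whole, so its level is uncertain. CRELD2, a secreted protein with isomerase activity, rose from 20.7 and 19.22 to 23.08 and 24.23 CPM, a log2 fold change of 0.25 (adjusted p = 0.0111) that was not called with total counts alone (0.19), DESeq2, no filter, or without vehicle replicate 2 (0.18). Its relative CRELD1, a membrane protein, had 0.07 and did not pass.

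Of the oxidases that recharge the isomerases, 1 fell and the other was not called. ERO1LB (ENSG00000086619), the ERO1 beta oxidase best known from insulin-secreting cells, had 16.71 and 17.24 CPM with vehicle and 11.15 and 11.34 CPM with AICAR. Both AICAR values lay below both vehicle values, and the gap was many times the spread within a group. The log2 fold change was -0.59 ± 0.0736 (SE; adjusted p = 9.59e-05), or 1.51-fold lower, and the call was kept in all 14 alternatives, with values from -0.65 to -0.58. ERO1L (ERO1 alpha), the widely expressed paralog, had 52.03 and 57.01 CPM against 57.53 and 53.28 CPM. Its groups overlapped, with a log2 fold change of 0.02 and an interval from -0.10 to 0.15.

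The lectin chaperones of the calnexin cycle, which hold glycoproteins until they have folded, both rose. CALR (ENSG00000179218) had 699.9 and 711.5 CPM with vehicle and 817.8 and 815.0 CPM with AICAR, and CANX had 587.8 and 602.3 against 671.0 and 655.4 CPM. The groups did not overlap for either gene. The log2 fold changes were 0.21 (adjusted p = 0.00103) and 0.16 (adjusted p = 0.00713). CANX lost its call with total counts alone (0.10) and without AICAR replicate 1 (0.14).

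Of the degradation genes, HERPUD1 (ENSG00000051108), a short-lived membrane protein that organises the HRD1 ubiquitin ligase complex, moved most. It had 55.12 and 54.49 CPM with vehicle and 32.22 and 31.8 CPM with AICAR. Replicates differed by less than 1 CPM in either group. The log2 fold change was -0.78 ± 0.047 (SE; adjusted p = 4.04e-07), or 1.71-fold lower, with values from -0.84 to -0.76 over the 14 alternatives, all of which kept the call. On the length-scaled level deposited by the authors (FPKM) it was the most abundant degradation gene with vehicle, at a mean of 46.5 FPKM, and stood at 24.7 FPKM with AICAR, under OS9, EDEM1, DERL1 and DERL2.

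The ligase and its adaptor did not pass the test. SYVN1, the HRD1 ligase, had 40.67 and 43.15 CPM against 40.43 and 42.39 CPM, and its adaptor SEL1L had 50.67 and 49.54 against 52.83 and 48.94 CPM. The groups overlapped for both. The 95% intervals of their log2 fold changes ran from -0.13 to 0.10 for SYVN1 and from -0.09 to 0.13 for SEL1L, so neither includes the fall of HERPUD1, though that difference was not tested.

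The derlins, membrane proteins of the retrotranslocation channel, had small falls. DERL1 had 53.11 and 55.55 CPM with vehicle and 49.67 and 47.33 CPM with AICAR, and DERL2 had 31.07 and 29.88 against 27.21 and 26.71 CPM. The groups did not overlap, with log2 fold changes of -0.16 (adjusted p = 0.018) and -0.18 (adjusted p = 0.0242). Neither was called with DESeq2 or with no filter, DERL1 not without vehicle replicate 2 (-0.14) or AICAR replicate 2 (-0.13), and DERL2 lost its call when vehicle replicate 1 (-0.15) or either AICAR library (-0.19 and -0.16) was left out. For DERL1 the mean FPKM was also not lower, at 30.4 with vehicle and 30.7 with AICAR, the only called member whose FPKM moved against its counts.

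OS9, a lectin that reads trimmed glycans for degradation, was the degradation gene that rose, from 80.64 and 76.32 to 91.41 and 92.59 CPM, a log2 fold change of 0.23 (adjusted p = 0.0012). The EDEM genes, whose products trim mannose from misfolded glycoproteins, did not pass. EDEM1 had 154.6 and 154.0 CPM against 164.6 and 162.3 CPM, which did not overlap (0.08, adjusted p = 0.0963). EDEM2 had 0.08 (adjusted p = 0.372) and EDEM3 -0.09 (adjusted p = 0.22).

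In the sensor group XBP1 was called lower and ATF6B higher, and the other 4 genes did not pass. XBP1 (ENSG00000100219) had 757.3 and 760.0 CPM with vehicle and 637.3 and 627.4 CPM with AICAR. The means were 759 ± 1.9 and 632 ± 7.0 CPM (SD, n = 2), further apart than the replicates of either group. The log2 fold change was -0.26 ± 0.0372 (SE; adjusted p = 0.000238), and from -0.32 to -0.25 over the alternatives. On the FPKM scale XBP1 was the most abundant of the 36 genes with vehicle, at a mean of 478 FPKM, ahead of CALR at 420 FPKM. With AICAR it stood at 386 FPKM, behind CALR at 463 and PDIA6 at 403 FPKM.

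ATF6B, the paralog of ATF6 with weaker transcriptional activity, rose from 57.41 and 52.83 to 66.2 and 65.01 CPM, a log2 fold change of 0.25 ± 0.0489 (SE; adjusted p = 0.00184). ATF6 itself had 59.05 and 54.89 CPM against 57.84 and 56.3 CPM, with a log2 fold change of 0.00 and an interval from -0.10 to 0.11. ERN1, the gene of IRE1, was among the least abundant members at 4.39 and 4.051 against 4.259 and 4.009 CPM. Its interval, from -0.34 to 0.28, includes changes as large as that of XBP1. The site-1 and site-2 proteases, which release ATF6 from the membrane, did not pass, MBTPS1 at -0.02 and MBTPS2 at -0.24 (adjusted p = 0.191). MBTPS2 had 5.042 and 5.601 CPM with vehicle and 4.259 and 4.757 CPM with AICAR, with no overlap.

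**Figure D4:**
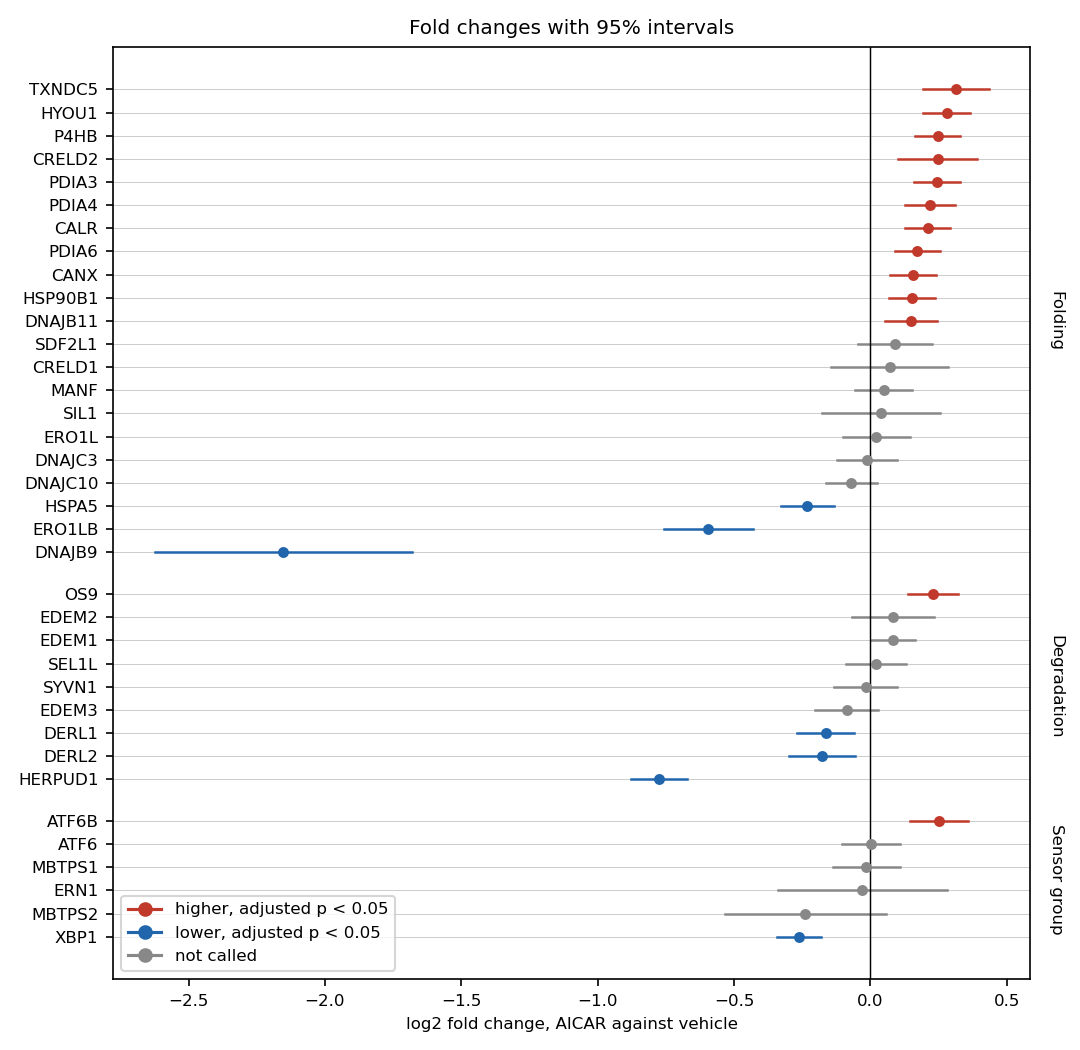
Log2 fold change between AICAR and vehicle of the 36 genes with 95% intervals from the fit across all genes, by role (red higher, blue lower, grey not called). The rises lie between 0.15 and 0.31, while the falls reach -0.78 for HERPUD1 and -2.15 for DNAJB9.

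On the FPKM scale the members spanned a wide range with vehicle, from 1.45 for MBTPS2 to 478 for XBP1. HSPA5, at 40.7 FPKM, ranked 13 among the 36, under CALR, PDIA6, CANX, PDIA3, HSP90B1 and P4HB, all of which exceeded 140 FPKM. In 19 of the 20 called members the mean FPKM moved the same way as the count test. In the authors' deposited table, q-values of 16 members were under 0.05, 11 higher and 5 lower, and all 16 were called here with the same sign. In the authors' deposited table the log2 fold changes were -1.28 for DNAJB9, -0.73 for HERPUD1 and -0.52 for ERO1LB. The fit here gave -2.15, -0.78 and -0.59 for the same genes. The FPKM values and the authors' comparison come from the same 4 libraries, so a shared sign is not independent evidence.

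Other genes of the pathway came from 5 lists. Of 105 tested genes, 29 rose and 21 fell, 47.6% in all, against the 39.1% over all genes, and with total counts alone 13 rose and 23 fell. The PERK arm, which signals through translation control and the factor ATF4, had 1 gene higher and 7 lower of 11, with a median log2 fold change of -0.51. That is 72.7% called against the 39.1% over all genes, of which 19.7% were lower. At least 1.5-fold lower were 5 of the 11, against 7.57% of all genes. EIF2AK3, the gene of PERK, had 39.03 and 37.38 CPM with vehicle and a log2 fold change of -0.45 (adjusted p = 0.000152). DDIT3, the stress factor CHOP, had -2.55 (adjusted p = 6.94e-08) and CHAC1, a glutathione-degrading enzyme, -3.59, while ATF4 mRNA had 0.10 and did not pass (adjusted p = 0.0618). ATF5, a further stress factor, was the gene that rose (0.15), which was no longer called with total counts alone or without vehicle replicate 2. The number of PERK arm genes that rose was 2 with upper-quartile scaling, DESeq2, limma-voom or a replicate block.

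Of 27 other folding factors 11 rose and 4 fell, 55.6% called against the 39.1% over all genes. Their median was 0.10, and with total counts alone 7 rose and 4 fell. The number that rose was 7 with no filter, and the number that fell was 2 without AICAR replicate 1 and 1 with DESeq2. GANAB and PRKCSH, the subunits of glucosidase II, which feeds glycoproteins into the calnexin cycle, had the largest rises, 1.32-fold and 1.28-fold. The falls were largest for FKBP14, a prolyl isomerase, at 1.47-fold and the membrane J protein DNAJB14 at 1.33-fold. Of 25 other genes of degradation 8 rose and 5 fell, 52% called, with a median of 0.06, or 2 and 5 with total counts alone. Without AICAR replicate 2 these numbers were 4 and 3, with DESeq2 they were 4 and 2, and 5 rose with no filter or with a mean of at least 10 CPM. VCP, the ATPase that pulls substrates out of the membrane, rose 1.25-fold and TMUB1 1.26-fold, and the ubiquitin ligase gene RNF139 fell 1.88-fold and FAM8A1, an HRD1 partner, 1.24-fold.

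Of 24 genes of the translocon, signal peptidase and signal recognition particle, 5 rose and 3 fell, with a median of 0.02. That is 33.3% called, under the 39.1% of all genes. With total counts alone 3 rose and 5 fell. The number that rose was 3 with DESeq2 and 2 with no filter, and the number that fell was 5 without vehicle replicate 1 or with a mean of at least 10 CPM. SSR2 and SEC61A1 rose 1.19-fold and 1.17-fold, and SEC62 and SRP19 fell 1.18-fold and 1.15-fold. Of 18 other sensors and regulators 4 rose and 2 fell, also 33.3% called, or 1 and 2 with total counts alone. CREBZF, a leucine zipper protein, fell 1.67-fold, TRAF2, an adaptor that binds IRE1, fell by 0.26 on the log2 scale, and the co-chaperone and ubiquitin ligase gene STUB1 rose 1.19-fold.

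**Figure D5:**
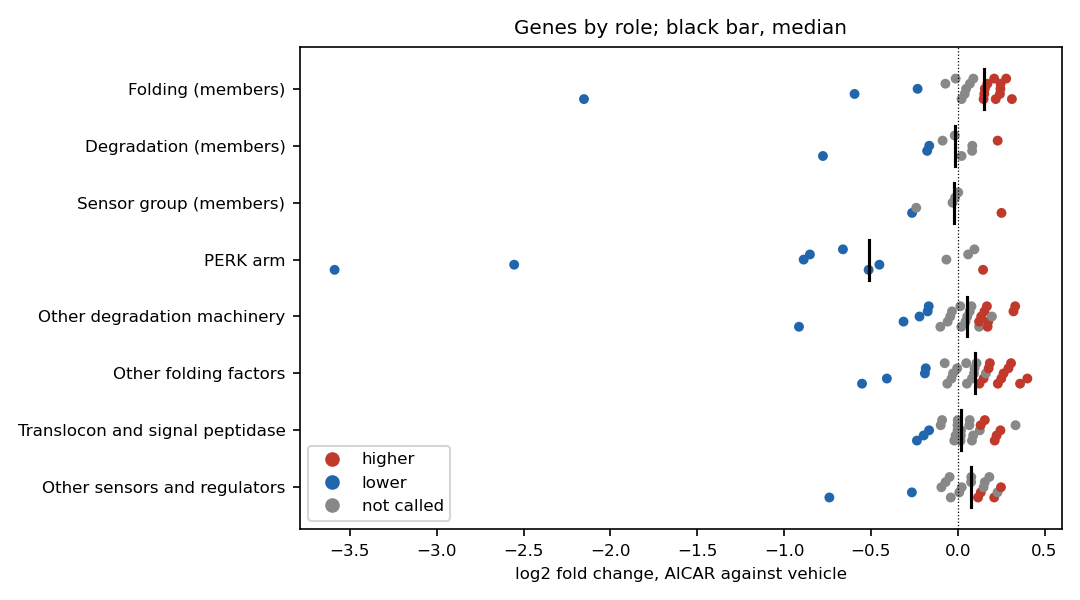
Log2 fold change between AICAR and vehicle of each tested gene (points; red higher, blue lower, grey not called) in the 3 roles of the members and the 5 lists of other pathway genes, with the median of each as a black bar. The PERK arm has the lowest median, -0.51, and the folding members the highest, 0.15.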

How the data were processed

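Libraries were stranded, from total RNA, and read as single reads of 75 bases, per the labels' protocols. DESeq2, RSEM 1.2.31, STAR 2.5.3a, Trimmomatic 0.32 and build hg19 appear in the submitters' processing notes, without roles. The annotation and the strand setting of the counting are not given in the sources used here. Expected counts were deposited by the authors (estimated, not normalized), and were rounded here to whole numbers and tested. FPKM values, deposited with the authors' own scaling for length and depth, were used to order levels between genes and to compare the direction of called members with that of the counts, not in a test. The log2 fold changes and q-values deposited by the authors are their own comparison and were only set beside the calls made here.

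Genes were filtered with filterByExpr (minimum count 10, minimum total 15), scaled with TMM factors and tested with the quasi-likelihood test of edgeR 4.0.16 in R 4.3.3 (two-sided), adjusted over all 13626 genes tested. The SE is the log2 fold change over the root of the test's F. Means carry the SD of 2 libraries. Called members are those under an adjusted p of 0.05, and every member may be named. Of each pathway list the highest and lowest called genes and EIF2AK3, ATF4 and DDIT3 are named. UGGT2 and PDIA2 were not analysed here, and ERN2 and CREB3L3 did not pass the filter. The members and lists were chosen with earlier results of these data known. No set test was run.

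The replicates differed by more than sampling noise (chi-square per gene 8.353 with vehicle, 2.908 with AICAR), so none was treated as a copy. On simulated data with 13626 genes the procedure recovered 61.6% of 250 genes changed 1.3-fold and 80.0% of 250 changed 2-fold. In those data 13.6% of calls were false, above the 5% aimed at. Both values depend on how many genes are changed. Whether the measured libraries, in which 39.1% of genes were called, have the same recovery or false share was not tested. The smallest fold tried was 1.3, above the largest rise of a member, 1.24-fold for TXNDC5. Recovery of rises as small as those of the members was not tested. Expected counts of 9 members were not whole (tolerance 1e-06), so they share reads with other genes, and exons of 18 overlap another gene in GENCODE 29, 12 of them on the opposite strand only. Promoters came from RefSeq on GRCh38.p14, which is not the authors' build. Alternatives were RLE, upper-quartile and total-count scaling, no filter or a mean of at least 10 CPM, DESeq2 1.42.0, limma-voom (limma 3.58.1), a replicate block, a test against 1.2-fold, leaving out each library, and a fit to protein-coding genes alone. Python 3.11.15 with matplotlib 3.10.9 drew the figures.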

Additional observations from a re-analysis of the deposited data

How the results depend on the processing

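RLE and upper-quartile factors, limma-voom and protein-coding genes alone left every count of called members as reported. In the test against a 1.2-fold change, 0 members were higher and 3 lower, against 170 and 1173 of all genes tested. Folding genes had 0 higher, and degradation genes 0 higher and 1 lower. The sensor group had 0 called in either direction, and the pathway lists had 1 higher and 8 lower. By construction this test asks for a larger change. With total counts alone, 7 folding genes and 13 genes of the pathway lists were higher, against 1390 of all genes tested. The median log2 fold change of all genes then moved to -0.06. With no filter or with DESeq2, 1 degradation gene was lower, and 18 genes of the pathway lists were higher with no filter; the cause was not tested. Leaving out 1 library at a time gave 10 to 13 members higher and 5 to 6 lower, 8 to 11 folding genes higher and 3 lower, 1 degradation gene higher and 1 to 2 lower, 1 gene of the sensor group in each direction, and 20 to 27 genes of the pathway lists higher and 18 to 23 lower. The replicate block gave 13 members higher and 7 lower, and 30 and 21 in the pathway lists. Libraries with the same number did not deviate together (correlation -0.0497 over genes), so the numbers were not taken to pair the samples. Of 20 called members, 3 were kept in every alternative in which they were tested, and of 16 not called 1 was called in at least 1. DNAJB9, one of those kept, was tested in 13 of the 14 alternatives, since a mean of at least 10 CPM removed it. No called member changed sign. With 2 libraries per group, intervals are wider under 10 CPM: that of ERN1, from -0.34 to 0.28, includes the changes of both XBP1 and P4HB.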
